A study of Homo sapiens with 4 samples.

Results

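The 10 genes described here encode the replacement histone variants H2A.Z, H2A.X, H2A.J, macroH2A, H3.3, H1.0 and H1.X. They were taken by symbol from the deposited gene table, in which 21550 of 64962 genes were above 0 in at least 1 library, and all 10 were present. RNA was sequenced from HT-29 cells, an established human colorectal adenocarcinoma line, and NCM460 cells, an established line used as the normal colorectal counterpart. Each line was left without SCS (control) or received 100 μg/mL SCS, a chondroitin sulfate from hybrid sturgeon, for 24 h. The labels give no engineered allele for either line, and per the study's methods NCM460 was grown with more fetal bovine serum than HT-29. Each of the 4 conditions has 1 library, so no difference below has a replicate check and no p-value is given.

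Most histone mRNAs are made only while DNA is copied and end in a stem-loop instead of a poly(A) tail. Replacement variants come from ordinary genes with introns or poly(A) tails, are made through the whole cell cycle, and enter chromatin at promoters, at sites of DNA damage or in cells that have left the cycle. H2A.Z and H3.3 mark active and poised regulatory regions, H2A.X is phosphorylated around DNA breaks, macroH2A is tied to silent chromatin, and H1.0 accumulates in resting and differentiated cells.

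The genes lie on 10 chromosomes of GRCh38. H2AFZ (ENSG00000164032, chr4:99948086-99950388, minus strand) and H2AFV (ENSG00000105968, chr7:44826791-44848083, minus strand) encode the H2A.Z paralogs. H2AFX (ENSG00000188486, chr11:119093854-119095467, minus strand) encodes H2A.X and H2AFJ (ENSG00000246705, chr12:14774383-14778002, plus strand) H2A.J. H2AFY (ENSG00000113648, chr5:135333900-135399914, minus strand) and H2AFY2 (ENSG00000099284, chr10:70052796-70112280, plus strand) encode macroH2A. H3F3A (ENSG00000163041, chr1:226061851-226072001, plus strand) and H3F3B (ENSG00000132475, chr17:75776434-75785893, minus strand) encode the same H3.3 protein. H1F0 (ENSG00000189060, chr22:37805093-37807436, plus strand) encodes H1.0 and H1FX (ENSG00000184897, chr3:129314771-129316277, minus strand) H1.X.

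The promoters are shown for the 3 H2A genes with lower levels in HT-29 cells with SCS and for H1FX, which was higher there, so that their letters can be read beside the values that follow. The sequences are the 250 bases before the start site in RefSeq (GRCh38.p14), written 5′ to 3′ on the gene's strand. Capitals mark matches on either strand to the CCAAT box (letters CCAAT), to the TATA box (letters TATAAA) or to the cell cycle homology region (letters TTTGAA). The windows are chr4:99950276-99950525 for H2AFZ, chr7:44848088-44848337 for H2AFV, chr11:119095466-119095715 for H2AFX and chr3:129316287-129316536 for H1FX, all on the minus strand.
H2AFZ: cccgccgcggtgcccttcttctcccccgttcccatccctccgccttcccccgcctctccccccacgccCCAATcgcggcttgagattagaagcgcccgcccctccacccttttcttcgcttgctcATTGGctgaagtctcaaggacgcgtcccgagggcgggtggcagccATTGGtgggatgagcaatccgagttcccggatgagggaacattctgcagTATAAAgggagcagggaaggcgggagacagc
H2AFV: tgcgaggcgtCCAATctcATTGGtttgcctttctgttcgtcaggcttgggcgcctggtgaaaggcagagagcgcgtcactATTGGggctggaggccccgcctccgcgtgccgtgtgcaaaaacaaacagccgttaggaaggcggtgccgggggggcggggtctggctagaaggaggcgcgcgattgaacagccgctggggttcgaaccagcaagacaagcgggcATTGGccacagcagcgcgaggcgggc
H2AFX: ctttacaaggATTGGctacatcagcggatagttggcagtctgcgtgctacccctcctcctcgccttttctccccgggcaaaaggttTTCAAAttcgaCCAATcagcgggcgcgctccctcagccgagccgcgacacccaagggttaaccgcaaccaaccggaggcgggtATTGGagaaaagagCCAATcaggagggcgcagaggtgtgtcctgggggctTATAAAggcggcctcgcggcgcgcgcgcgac
H1FX: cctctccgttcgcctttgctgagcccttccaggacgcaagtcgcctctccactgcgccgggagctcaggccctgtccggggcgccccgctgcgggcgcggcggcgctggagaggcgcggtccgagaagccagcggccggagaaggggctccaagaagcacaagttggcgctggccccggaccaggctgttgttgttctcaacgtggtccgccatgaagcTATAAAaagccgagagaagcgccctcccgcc
In windows from 250 bases before to 50 bases after the start, CCAAT was found 3 times in H2AFZ, 4 times in H2AFV, 4 times in H2AFX and 0 times in H1FX on both strands together, against 34.6% of 35116 RefSeq promoter windows with at least 1. H2AFZ, H2AFX and H1FX each had TATAAA at position -31, counted from the start site, and 11.5% of all windows hold it on either strand. TTTGAA stood at position 5 in H2AFZ, beyond the bases printed, and its complement at -164 in H2AFX, against 15.2% of all windows. Of the other members with a window in the table, H3F3B had 4 CCAAT and 1 TATAAA and H2AFJ had 3 CCAAT, while the H2AFY2 window held none of the motifs searched. H2AFY and H3F3A have 2 and 4 windows, with 2 CCAAT at the most in any of them. The E2F motifs TTTCCCGC and TTTGGCGC, held by 1.63% and 0.652% of windows, were in no member's window. The printed promoters were picked by the HT-29 values of their genes, and H3F3A, also called lower there, is not among them. Whether the motifs relate to the changes was not tested, and a match of letters does not show a bound site.

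The named genes of the deposited table held 1654764 fragments for untreated and 1605372 for SCS-treated HT-29 cells. They held 1347854 fragments for untreated and 1156568 for SCS-treated NCM460 cells. Sets of 4 values keep this order throughout. Mitochondrial transcripts took 35.8%, 13.8%, 62.3% and 46.3% of them. Levels are fragments scaled to library size (CPM) scaled by TMM, which sets the bulk of the genes level between libraries, and changes are log2 ratios of SCS over control with a 95% counting interval in brackets. A change was called when it was larger than 1.5-fold and its interval excluded 0, and the interval covers counting error only. In bulk RNA, fewer cells of a kind and less RNA per cell cannot be told apart. Of 11 colon epithelium markers 10 were found, with summed levels of 6526, 3535, 4346 and 2659 CPM carried mostly by the keratins KRT8, KRT18 and KRT19. CDX1 was listed at 0 in every library, CDX2 at 0 in HT-29, and VIL1, KRT20 and LGALS4 were listed at 0 in NCM460. Of 8 mesenchymal genes 6 were found, at 5.87, 8.74, 118 and 131 CPM in sum, with CDH2 and COL1A2 listed at 0 in every library. A listed 0 may be a failed estimate, as set out below for SQLE, so it does not show that a marker is absent.

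In HT-29 cells, 6 of the 9 members at or above a mean of 1 CPM were called with SCS, 4 lower (H2AFZ, H2AFV, H2AFX and H3F3A) and 2 higher (H1F0 and H1FX). Over all 12168 loci tested the share called was 31.5%, with 16.8% higher and 14.8% lower. The median change was -0.28 over the 9 members and 0.07 over all loci. In NCM460 cells, 3 of 10 were called, H2AFX and H1F0 lower and H2AFZ higher, against 29.2% of 12657 loci. That share is close to the background, and the median change was -0.02 over the members and 0.03 over all loci. Scaled by total fragments alone, which moves the median of all loci by 0.62, 5 members were higher and 0 lower in NCM460, and with DESeq2 size factors 0 were higher and 3 lower. The levels by library show the 4 values of each gene, and the plot of changes shows the members of the H2A.Z pair, H2A.X and H1.0 farthest from 0 in HT-29 cells.

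**Figure D1:**
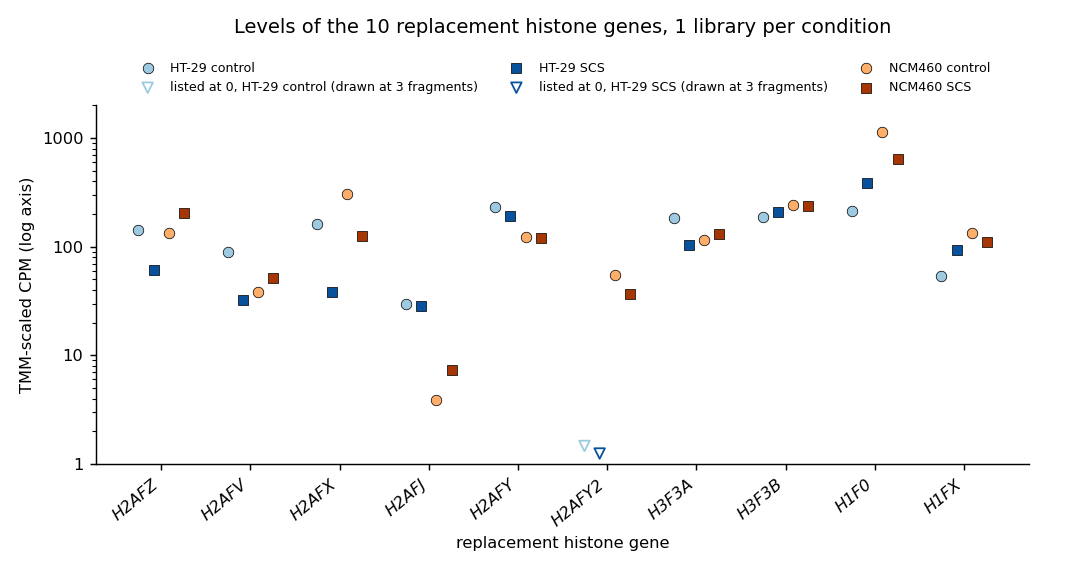
Level of each replacement histone gene in each of the 4 libraries (TMM-scaled CPM on a log axis; circles are controls, squares SCS). H1F0 reached 1140 CPM in the NCM460 control, H2AFX was 161 and 38.3 CPM in the HT-29 libraries, and open triangles mark H2AFY2, listed at 0 in both HT-29 libraries and drawn at the floor of 3 fragments.

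**Figure D2:**
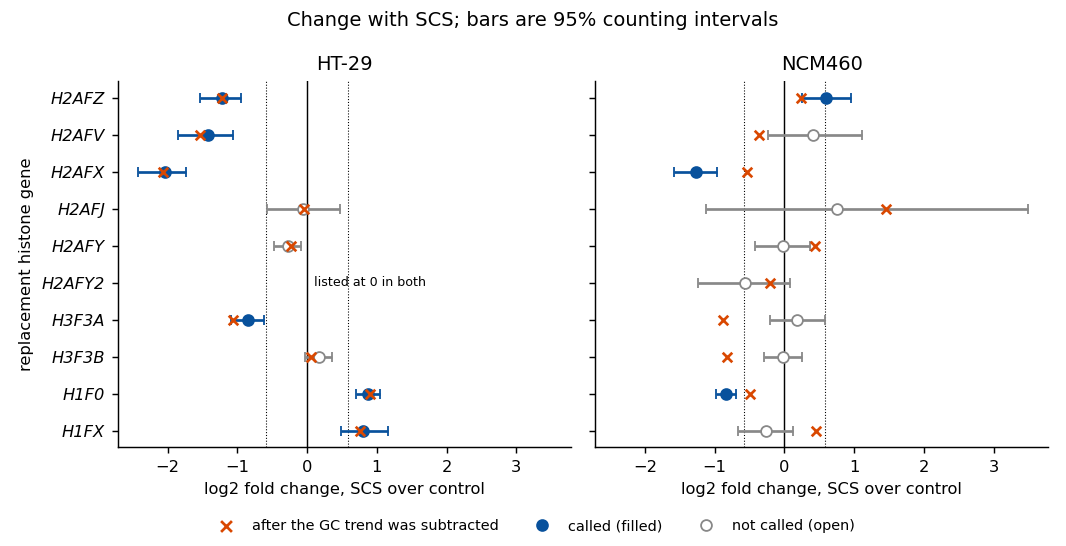
Log2 fold change of SCS over control in each line with its 95% counting interval; filled points were called, dotted lines mark 1.5-fold and crosses give the change after the trend with GC content was subtracted. The crosses lie near the points in HT-29 and away from them in NCM460, where H2AFX moved from -1.26 to -0.54 and H3F3A from 0.18 to -0.88.

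The H2A.Z genes both fell in HT-29 cells. H2AFZ had 293, 146, 105 and 221 fragments, or 143, 60.8, 135 and 204 CPM, in the 4 libraries. HT-29 with SCS was the lowest of the 4 and NCM460 with SCS the highest, and the controls of the lines were close. The log2 change was -1.22 (-1.53 to -0.95) in HT-29 and 0.60 (0.26 to 0.95) in NCM460. H2AFV, with 182, 78, 30 and 56 fragments, had 89.0, 32.5, 38.5 and 51.8 CPM, so its HT-29 control was above the other 3 libraries. Its change was -1.42 (-1.86 to -1.06) in HT-29, and 0.42 (-0.24 to 1.12) in NCM460, which was not called. H2AFZ gave 61.7%, 65.2%, 77.8% and 79.8% of the fragments of the pair. The exact 95% intervals of these shares overlapped within each line (57.1% to 66.1% and 58.5% to 71.4% in HT-29), so no shift between the paralogs with SCS was detectable at this depth.

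As background for this and the other lists below, 31.5% of all loci were called in HT-29 and 29.2% in NCM460. After the trend with GC content was subtracted these shares were 30.5% and 11.5%. The 14 genes of H2A.Z exchange load H2A.Z into chromatin or remove it. In HT-29 cells 0 of them were called higher and 2 lower, at a median of -0.31, or 1 higher and 3 lower, ANP32E among the lower, after the trend with GC content was subtracted. The lowest, RUVBL1, an ATPase shared by the loading complexes, went from 146 to 66 fragments (-1.34, -1.82 to -0.95). INO80, a remodeller, had the highest value among those with at least 10 CPM (0.53, 0.15 to 0.93). ANP32E, a chaperone that strips H2A.Z, was at -0.53 (-1.04 to -0.06), not called, and at -0.81 after that trend. In NCM460, 3 were called higher and 4 lower at a median of -0.46, and after the GC trend was subtracted 0 were higher and 1 lower at a median of -0.10. ANP32E had 9 and 55 fragments there, a change of 2.02 that became 0.68 after the GC trend, not called. The catalytic subunit SRCAP, whose locus is shared with PHKG2 and is therefore uncertain, was called lower at -1.27 (-1.65 to -0.93) and was the gene still called after the GC trend (-0.70, -1.07 to -0.35).

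H2AFX fell in both lines and had the largest change of the members in HT-29. It had 329, 92, 238 and 137 fragments, or 161, 38.3, 306 and 127 CPM. Each SCS library was below its control. The log2 change was -2.03 (-2.42 to -1.73) in HT-29, a fall to 0.244 of the control, and -1.26 (-1.58 to -0.96) in NCM460. After the trend with GC content was subtracted it was -2.07 in HT-29 and -0.54 (-0.86 to -0.24) in NCM460, where it no longer passed 1.5-fold. H2AFX is unusual among the members because its mRNA also ends in a stem-loop form made in S phase, and the data give 1 value for both forms.

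Of 9 kinases and readers of H2A.X, 2 were called lower and 0 higher in HT-29, at a median of -0.18, or 3 lower after the GC trend. PRKDC, the catalytic subunit of DNA-dependent protein kinase, which phosphorylates H2A.X, went from 1082 to 430 fragments (-1.56, -1.73 to -1.40). ATM, the kinase that acts on H2A.X after double-strand breaks, had the highest value, 0.57 (0.25 to 0.92), which was not called. In NCM460, 6 were called higher and 1 lower at a median of 0.95, and 1 and 1 after the GC trend was subtracted. RNF168, a ubiquitin ligase at damaged chromatin, went from 3 to 26 fragments there (2.31, 0.94 to 5.01), and stayed called after the GC trend (1.68). MDC1, which binds phosphorylated H2A.X, was called lower at -0.89 (-1.39 to -0.42), and was at -0.54 and not called after the GC trend.

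The other H2A variants moved less in HT-29. H2AFJ, a variant known to build up in senescent cells with DNA damage, had 61, 69, 3 and 8 fragments, or 29.8, 28.7, 3.85 and 7.40 CPM. Its HT-29 libraries were both above the NCM460 libraries, and the change with SCS in HT-29 was -0.05 (-0.57 to 0.47). With 3 fragments in the NCM460 control its change there was 0.76 (-1.12 to 3.49), so a difference in either direction was not detectable at this depth. H2AFY, which encodes macroH2A1, had 478, 462, 96 and 131 fragments, or 234, 192, 123 and 121 CPM. Its change was -0.28 (-0.47 to -0.09) in HT-29 and -0.02 (-0.42 to 0.37) in NCM460, neither of them called. H2AFY2, which encodes macroH2A2, was listed at 0 in both HT-29 libraries and had 43 and 40 fragments in NCM460, a change of -0.56 (-1.24 to 0.08). A listed 0 may be a failed estimate in this table, since the sterol synthesis enzyme SQLE was listed at 0 in both NCM460 libraries beside 553 and 1999 fragments in HT-29. No fold between the lines is therefore given for H2AFY2. In NCM460, H2AFY gave 69.1% of the macroH2A fragments in the control and 76.6% with SCS, with overlapping intervals (60.7% to 76.6% and 69.5% to 82.7%).

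The H3.3 genes, which encode an identical protein, parted in HT-29 cells. H3F3A had 380, 247, 90 and 142 fragments, or 186, 103, 116 and 131 CPM, and its HT-29 control was above the other 3 libraries. H3F3B had 382, 504, 188 and 257 fragments, or 187, 210, 241 and 238 CPM, with the HT-29 control the lowest. In HT-29 the change was -0.85 (-1.09 to -0.62) for H3F3A, which was called, and 0.17 (-0.03 to 0.36) for H3F3B, which was not. The H3F3A part of the pair's fragments went from 49.9% (46.3% to 53.5%) to 32.9% (29.5% to 36.4%) in HT-29, intervals that do not overlap. By total fragments alone the H3F3A change was -0.57 and not called. In NCM460 its part was 32.4% and 35.6% with overlapping intervals, and the changes were 0.18 (-0.21 to 0.58) for H3F3A and -0.02 (-0.30 to 0.26) for H3F3B. By FPKM, which has no counting interval, the H3F3A part fell from 58.7% to 40.4% in HT-29 and rose from 34.1% to 44.2% in NCM460.
After the GC trend was subtracted, the NCM460 changes were -0.88 for H3F3A and -0.82 for H3F3B, and both were called lower. The H3.3 mRNAs have processed copies elsewhere in the genome. The 5 annotated copies of H3F3A and 2 of H3F3B held 0 fragments in every library, and 5 copies of H2AFZ held 1, 1, 0 and 0, so how reads of near-identical sequence were shared out is uncertain.

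Of the 8 genes of H3.3 deposition, 1 was called higher and 0 lower in HT-29 at a median of 0.18. UBN2, a subunit of the HIRA complex, went from 89 to 246 fragments (1.21, 0.88 to 1.60) and CABIN1 of the same complex had the lowest value (-0.55, -1.06 to -0.10). HIRA itself, in a locus shared with C22orf39, was at -0.32 in HT-29 and was called lower at -1.03 (-1.95 to -0.24) in NCM460. DAXX and ATRX, which place H3.3 at repeats and telomeres, were at -0.27 and 0.41 in HT-29 and not called. In NCM460, 2 of the 8 were called in each direction, with ATRX (1.65) and DEK (1.71, 7 to 35 fragments), a chromatin protein that escorts H3.3, higher and CABIN1 (-1.21) lower beside HIRA. After the GC trend was subtracted CABIN1 and HIRA were at -0.57 and -0.52 and ATRX and DEK at 0.33 and 0.64, none of them called. The 1 gene of the list then called in NCM460 was UBN2, lower at -1.29 (-2.41 to -0.17), which had 14 and 17 fragments there and was at -0.18 (-1.30 to 0.94) before. DAXX was at -0.31 (-0.93 to 0.29) in NCM460.

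Both linker histone genes rose in HT-29 cells. H1F0 had 433, 932, 888 and 691 fragments, or 212, 388, 1140 and 639 CPM. It was lower in both HT-29 libraries than in either NCM460 library, and the lines moved toward each other with SCS. The change was 0.87 (0.71 to 1.04) in HT-29 and -0.83 (-0.98 to -0.69) in NCM460. H1FX had 109, 226, 104 and 120 fragments, or 53.3, 94.0, 134 and 111 CPM, with the HT-29 control the lowest. Its change was 0.81 (0.48 to 1.16) in HT-29 and -0.26 (-0.66 to 0.13) in NCM460, the latter not called. H1FX shares its values with the annotated microRNA AC137695.1 inside the gene, so its value is uncertain. H1F0 gave 79.9% and 80.5% of the fragments of this pair in HT-29. In NCM460 it gave 89.5% (87.4% to 91.4%) and 85.2% (82.6% to 87.6%), intervals that overlap slightly. By FPKM, which corrects for transcript length, its share was 62.4%, 60.6%, 85.0% and 75.6%.

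Per kilobase, the deposited FPKM values rank the members within a library. In the HT-29 control H3F3A (205 FPKM) was first, followed by H2AFX (154), H2AFZ (154) and H3F3B (144). With SCS the order in HT-29 was H3F3B (128), H1F0 (125), H3F3A (86.6) and H1FX (81.4), and H2AFX was at 32.2 FPKM. H2AFX and H2AFZ, which had been level in the control, both left the first 4 places. In the NCM460 control the order was H1F0 (638), H3F3B (348), H2AFX (244) and H2AFZ (191), and with SCS H1F0 (272), H2AFZ (220), H3F3B (186) and H3F3A (147). H1F0 was thus first in both NCM460 libraries, and neighbours in these orders have no measure of spread.

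Between the lines without SCS, 8 of 10 members were called against 48.4% of 12691 loci. H2AFV (1.18), H2AFJ (2.60, 1.34 to 5.27), H2AFY (0.92) and H3F3A (0.68) were higher in HT-29 than in NCM460, and H2AFX (-0.92), H1F0 (-2.42), H1FX (-1.31) and H2AFY2 were lower, H2AFY2 being the gene listed at 0. The calls of H2AFV and H1FX were lost after the GC trend was subtracted, which left them at 0.29 and -0.076, and H1FX was at -0.22 and not called by total fragments. The signs for H2AFX and H3F3A turned after the GC trend was subtracted, to 0.21 and -0.54. That for H2AFX also turned by total fragments (0.17), and that for H2AFY turned to -0.038 by FPKM. H3F3A kept its call in 7 of 12 alternatives. It also lost the call by DESeq2 size factors (0.56), the deposited scaling (0.50), FPKM (0.19) and equal depth (0.52). H3F3B, not called here, was called lower by FPKM and after the GC trend (-1.27 each) and higher by total fragments (0.72). With SCS, 7 of 10 were called against 46.6% of 13050 loci, with H2AFJ (1.79) and H2AFY (0.66) higher in HT-29 and H2AFZ (-1.73), H2AFX (-1.69), H1F0 (-0.72), H2AFV (-0.65, or 0.00485 by total fragments) and H2AFY2 lower. The H1F0 difference was smaller with SCS than without, and with SCS it lost its call by total fragments (-0.041) and after the expression trend was subtracted (-0.53). H2AFY with SCS lost its call after the expression trend (0.47) and by FPKM (0.039). H3F3A, not called with SCS, was called lower by FPKM (-0.77) and after the GC (-0.65) and expression (-0.63) trends. After the GC trend 8 of 10 members were called with SCS, 2 higher and 6 lower. Over all 12988 loci, 23.2% were then higher and 23.0% lower. H2AFZ was not called between the lines without SCS (0.09, -0.24 to 0.42, but 1.17 and called by total fragments) and 3.32-fold lower in HT-29 with SCS. The lines also differed in serum and in mitochondrial share, which cannot be told apart from the line itself.

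GC content moved with the changes in NCM460, as the plot by GC content shows. Over loci at or above a mean of 10 CPM, Spearman's rho between the change and the GC content of the transcript was -0.75 over 7342 loci in NCM460 and -0.18 over 7538 loci in HT-29, as a description across genes that share the same libraries. The members span 40.5% GC in H3F3A to 68.6% in H1FX. With the trend subtracted, 6 of 9 members were called in HT-29, against 30.5% of loci, in the same directions as before. In NCM460, 2 of 10 were called against 11.5%, and these were H3F3A and H3F3B, both lower, in place of the 3 called before. H2AFZ (0.24), H2AFX (-0.54) and H1F0 (-0.49) kept their signs in NCM460, and the counting intervals of H2AFX (-0.86 to -0.24) and H1F0 (-0.64 to -0.35) still excluded 0. Among the members not called before, H3F3A, H2AFV (0.42 to -0.37), H1FX (-0.26 to 0.46) and H2AFY (-0.02 to 0.43) turned their signs there. The part of GC content in the NCM460 values was not tested.

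**Figure D3:**
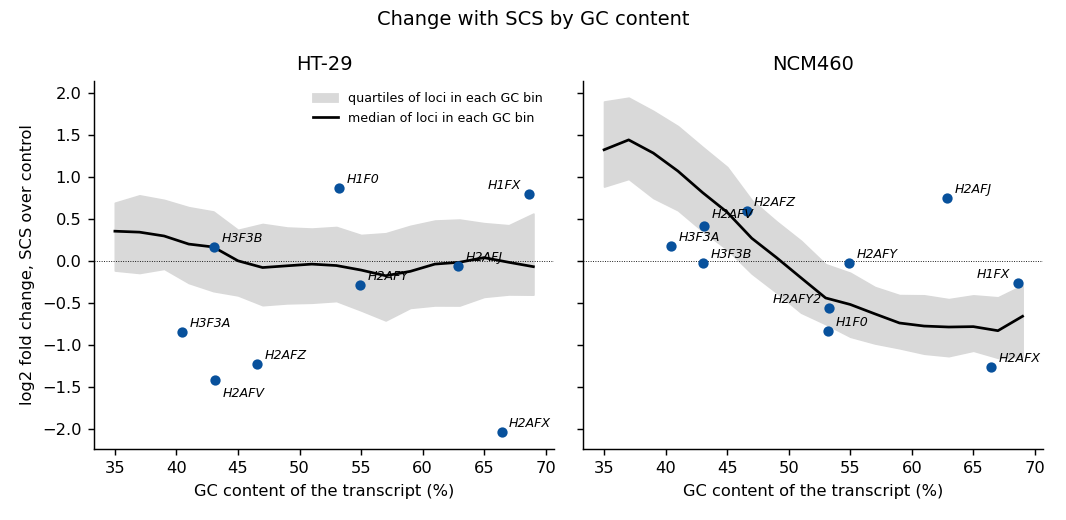
Log2 fold change of SCS over control against the GC content of the transcript (%), with the median (line) and quartiles (grey) of all loci at or above a mean of 10 CPM in bins of 2 percentage points, and the members as points. In NCM460 the line runs from above 1 at low GC to below -0.5 at high GC and 9 of 10 members lie within 1 log2 unit of it; in HT-29 it is nearly flat and H2AFX (-2.03), H2AFV (-1.42), H2AFZ (-1.22) and H3F3A (-0.85) lie below it.

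Replication-dependent histones gave a second scale for the members. Of 48 replication-dependent core histone loci tested in HT-29, 41 were called lower and 0 higher at a median of -1.54, and all 4 linker loci were called lower at a median of -1.18. The lowest core gene was HIST1H3B (111 to 17 fragments, -2.73) and the lowest linker gene HIST1H1B (261 to 31, -3.18). HIST3H2A was the highest (29 to 54 fragments, 0.62, -0.01 to 1.37) and was not called, but was at 0.69 and called after the GC trend. Their summed level went from 2020 to 762 CPM for the core genes and from 435 to 169 CPM for the linker genes, while the 10 members together were at 1294 and 1147 CPM. In NCM460, 28 of 40 core loci were called lower and 0 higher at a median of -0.97 (17 lower and a median of -0.63 after the GC trend was subtracted), and both linker loci tested were called lower (1 of them after the GC trend). HIST1H2BL was the lowest there (36 to 8 fragments, -2.45), HIST1H2BO the highest (44 to 56, -0.12), and HIST1H1C and HIST1H1E were at -1.004 and -1.33, or -0.43, not called, and -0.67 after the GC trend. The core genes summed to 5389 and 2737 CPM in NCM460, and the members to 2292 and 1667 CPM. Most of these mRNAs lack a poly(A) tail, and whether poly(A) RNA was selected is not given in the sources used here.

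**Figure D4:**
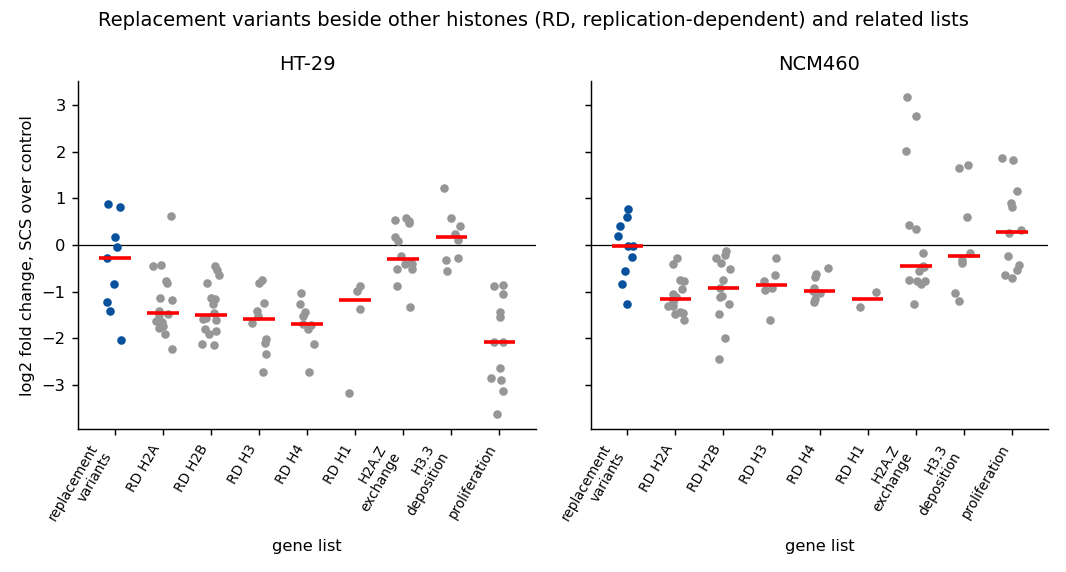
Log2 fold change of SCS over control in each line for the members, the replication-dependent (RD) histones by class and related lists; each point is 1 locus at or above a mean of 1 CPM and red lines are medians. In HT-29 the RD core loci have a median of -1.54 and the proliferation genes of -2.08, while the members are spread from -2.03 to 0.87 around -0.28.

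The members took a larger part of all histone fragments with SCS. Their share was 34.5% (33.5% to 35.6%) in the HT-29 control and 55.2% (53.8% to 56.6%) with SCS, and 25.9% (24.9% to 26.9%) and 33.8% (32.6% to 35.1%) in NCM460, by exact 95% binomial intervals of counting error. Within H3, the H3.3 genes gave 55.0% (52.4% to 57.7%) and 80.2% (77.5% to 82.7%) in HT-29, and 35.3% (31.9% to 38.7%) and 53.6% (49.9% to 57.2%) in NCM460. Within H1, H1F0 and H1FX gave 37.8% (35.3% to 40.4%) and 74.0% (71.8% to 76.2%) in HT-29, and 52.1% (49.8% to 54.4%) and 58.8% (56.2% to 61.4%) in NCM460. In each of these pairs the intervals were apart. Within H2A the share was 48.9% (47.0% to 50.8%) and 51.8% (49.4% to 54.3%) in HT-29, intervals that overlap, and 23.9% and 34.9% in NCM460. With loci of more than 1 gene left out, the H2A shares in HT-29 were 57.6% (55.6% to 59.7%) and 63.4% (60.8% to 66.0%), intervals that are apart, so the overlap depends on those loci. In HT-29 the H2A variants summed to 656 and 352 CPM beside 686 and 328 CPM for the replication-dependent H2A genes, both lower with SCS. The H1 variants summed to 265 and 482 CPM beside 435 and 169 CPM. In NCM460, 15 of 55 core and 2 of 4 linker loci were listed at 0 in both libraries, and in HT-29 1 core locus, HIST2H2BD, was. Without the loci at 0 in either line, the HT-29 shares of all histones were 39.1% and 58.0%. The shares are of fragments and are not corrected for length or GC content. After the GC trend was subtracted in NCM460, H3F3A and H3F3B were at -0.88 and -0.82. The 6 replication-dependent H3 loci tested there were then at a median of -0.20, from -0.85 before. The NCM460 shares were not recomputed with that trend, and the part of GC content in their rise was not tested.

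**Figure D5:**
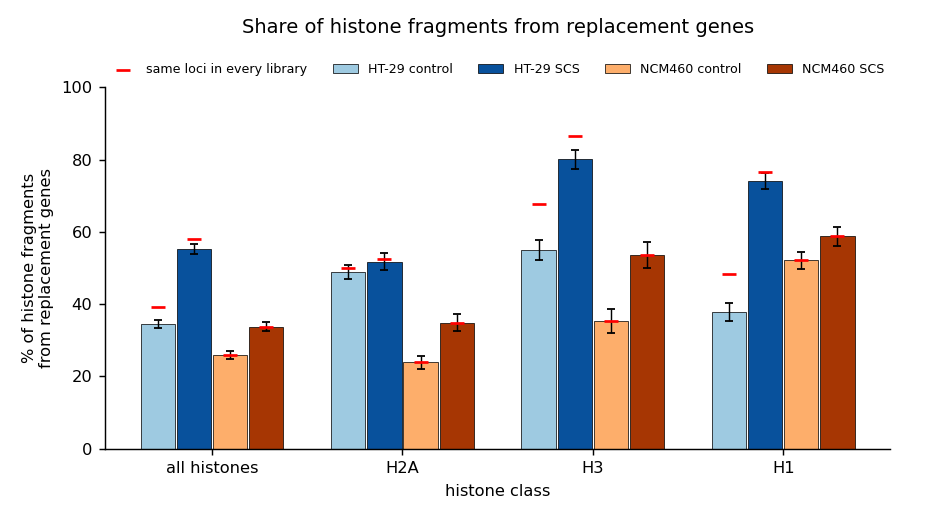
Share of histone fragments (%) that came from replacement genes in each library, for all histones and within H2A, H3 and H1; bars start at 0, black lines are exact 95% binomial intervals and red marks are the shares over loci not listed at 0 in either line. The H3 share rose from 55.0% to 80.2% in HT-29 and from 35.3% to 53.6% in NCM460, and the H2A intervals of the HT-29 libraries overlap, though not with loci of more than 1 gene left out. No share is corrected for GC content.

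Other genes of histone supply and growth moved beside these values. Of 14 general histone chaperones 8 were called lower and 0 higher in HT-29 at a median of -0.84, with ASF1B, which hands H3 and H4 to new DNA, the lowest (62 to 17 fragments, -1.92), and CHAF1B, in a locus shared with MORC3, the highest (0.59, -0.02 to 1.30). In NCM460, 5 were called higher and 2 lower at a median of 0.55, from SUPT6H (-1.34) to NPM1 (1.81), or 4 and 2 after the GC trend. Of 10 genes that make replication-dependent histone mRNA, 3 were called lower and 1 higher in HT-29 at a median of 0.04. SLBP, which binds the stem-loop, fell (88 to 56 fragments, -0.85, -1.39 to -0.38), CDK2 was the lowest (67 to 16, -2.10), and NPAT, the activator of these genes, was called higher (31 to 58, 0.63, 0.02 to 1.35), a call lost after the GC trend (0.36, -0.25 to 1.08), which left 0 of the list higher. In NCM460, 1 of 9 was called in each direction at a median of 0.45, LSM10 (23 to 5 fragments) lower and ERI1 (4 to 25) higher, the latter not called after the GC trend (0.79), and SLBP (0.78, -0.40 to 2.24) and NPAT (0.45, -1.16 to 2.43) were not called. All 12 proliferation genes were called lower in HT-29 at a median of -2.08, from MCM4 (-3.62) to TOP2A (-0.86), and 5 higher and 2 lower in NCM460 at 0.28, from MCM2 (-0.72) to CDK1 (1.86), or 1 and 0 after the GC trend was subtracted. The part of cell growth in the members' values was not tested. Of 15 other variants, outside the members, 3 loci had fragments. CENPA, the centromeric H3, in a locus shared with SLC35F6, was at 0.54 in HT-29, not called, and was called lower in NCM460 at -0.78 (-1.28 to -0.30), a call lost after the GC trend (-0.43, -0.93 to 0.05), and H2BFS had 10, 4, 15 and 13 fragments.

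For 8 members with at least 30 fragments in every library, the loci with the most similar pattern were sought among 2099 others as the root mean square difference of centred log2 CPM over the 4 libraries. H2AFZ was nearest to CDK6 (0.081) and RRP1B (0.134), H2AFV to TOB1 (0.131) and a locus of KREMEN1 and ZNRF3 (0.153), and H2AFX to the replication-dependent gene HIST1H2AI (0.1004) and CRABP2 (0.148). H2AFY lay nearest to CRKL (0.036) and a locus of CTNND1 and TMX2 (0.074). H3F3A lay nearest to SDHC (0.048) and CORO1C (0.096), and H3F3B to the NELFE locus (0.051) and ACADVL (0.055). H1F0 was nearest to DPF2 (0.091) and a locus of GPS2 and NEURL4 (0.114), and H1FX to a locus of FAU and SYVN1 (0.055) and TNFRSF1A (0.111). With 4 points each, such likeness is a description of these libraries. The nearest locus of H2AFX had 158, 37, 120 and 66 fragments. Its fall with SCS in both lines follows from how it was picked and is no separate evidence. No 2 members shared a nearest locus.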

How the data were processed

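HT-29 and NCM460 cells with and without SCS were profiled by RNA-seq, 1 library per condition, and grouped by the submitters' labels. Per the study's methods, RNA was extracted with TRIzol, sequenced as paired ends, and compared with Cuffdiff. The submitters' processing notes name bcl2fastq 2.17.1.14, cutadapt 1.9.1, Bowtie2, HTSeq 0.6.1 and hg19. The coordinates of the table are those of GRCh38, since 94.0% of the genes were found in GENCODE release 29, 93.4% of them with the same start and end.

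The deposited count columns hold a signal, fragment counts that the authors scaled by a factor for each library. Divided by what 1 fragment was worth, the values were whole, within 0.05, for 99.8% to 99.9% of entries, and they were rounded. The deposited FPKM columns, made by the authors, correct for transcript length and library size. Rows with no gene name (26, at most 0.0352% of fragments) were left out, and adjacent rows with identical values were merged into 18650 loci, of which 1812 hold several genes. Whether counting used strand is not given in the sources used here, and H3F3B overlaps UNK and H2AFY2 overlaps AIFM2 on the opposite strand.

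Fragments were scaled by edgeR 4.0.16 TMM factors (1.24, 1.50, 0.578 and 0.935) and log2 changes took 2 as the prior count. A locus was compared when its mean over the libraries of the comparison reached 1 CPM. Intervals are exact Clopper-Pearson intervals (95%, scipy 1.17.1) of the share of fragments in one library, and the floor is 3 fragments. A change was called when it was over 1.5-fold and its interval excluded 0. With edgeR and DESeq2, no count test could be fitted within a line with 1 library per condition, and a model shared by both lines was not fitted, so no test was run on the recovered whole fragments. GC trends were lowess curves (span 0.3, statsmodels 0.14.6) on the longest coding transcript of each gene in GENCODE release 29. The method was tested on simulated data, and the outcome is not given here, so it lends no support to the values. The simulated data held no GC trend and no shift of mitochondrial share within a line, so that test does not cover either. Promoter windows are RefSeq's, found for 9 of 10 members (not H1F0).

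Members and lists were chosen with earlier results of these data known. The genes named are the 10 members, the highest and lowest gene per list and line among those whose mean reached 10 CPM, CENPA, SLBP, NPAT, ANP32E, HIRA, DAXX and ATRX, and the 2 nearest loci of each member with at least 30 fragments in every library. SQLE and the cell markers were picked for naming with their values in view. The 12 alternatives to the scaling, prior, filter, trends and depth are given at the end, with those to the shares.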

Additional observations from a re-analysis of the deposited data

Results flagged for a closer look

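The changes of 2 members with SCS had opposite directions in the lines with counting intervals on opposite sides of 0. For H2AFZ, the change in HT-29 minus that in NCM460 was -1.82 on the log2 scale (-1.22 against 0.60), or -1.47 after the GC trend was subtracted, when its NCM460 interval (-0.10 to 0.59) included 0. For H1F0, it was 1.70 (0.87 against -0.83), or 1.40 after the GC trend was subtracted. In HT-29 the call of both genes was kept under each of the 12 alternatives. In NCM460 the sign of both was kept under each of the 12 alternatives, between 0.20 and 1.28 for H2AFZ and between -1.23 and -0.14 for H1F0. The call was kept in 7 of 12 for H2AFZ and 9 of 12 for H1F0. Among the 12, dropping the filter or raising it to a mean of 5 CPM changes only which loci are tested. Those alternatives could not change the values or calls of these genes. With 1 library per condition, the difference between the lines was not tested. Mitochondrial transcripts took 62.3% of the NCM460 control and 46.3% with SCS, against 35.8% and 13.8% in HT-29, and the part of this difference in the values was not tested.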

How the results depend on the processing

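In HT-29, the calls of H2AFZ, H2AFV, H2AFX, H1F0 and H1FX were kept under each of the 12 alternatives. H3F3A lost its call by total fragments (-0.57) and H2AFY gained one by FPKM (-0.80). The 12 include no filter and a filter at a mean of 5 CPM. Both change only which loci are tested, so the members' calls could not change under them. Total fragments alone, which leave the mitochondrial share in, moved the median of all loci by 0.24 in HT-29, 0.62 in NCM460, and 1.02 and 0.58 between the lines without and with SCS, and gave 3148 higher and 1115 lower loci in HT-29 (2040 and 1799 by TMM) and 3945 and 248 in NCM460 (1943 and 1747). The scaling of the deposited counts gave 1577 and 2182 in NCM460. By total fragments 5 members were called in NCM460, all higher, and by FPKM 6, of which 5 were lower, in place of 1 higher and 2 lower; DESeq2 size factors and the scaling of the deposited counts gave 0 higher and 3 lower. After the GC trend was subtracted 5 members in place of 8 were called between the lines without SCS, 2 higher and 3 lower. Over all 12648 loci, 18.5% were then higher and 18.9% lower. The members' median change became -0.80 (HT-29), -0.61 (NCM460), -0.49 and -0.91 (lines without and with SCS) by FPKM, and -0.0054 (HT-29), 0.66 (NCM460), 0.95 and 0.16 (lines without and with SCS) by total fragments; that of NCM460 (-0.02) became -0.29 after the GC trend and 0.30 after the expression trend. Among members called between the lines, signs turned for H2AFX (0.17 by total fragments and 0.21 after the GC trend), H3F3A (-0.54 after the GC trend) and H2AFY (-0.038 by FPKM) without SCS and for H2AFV (0.00485 by total fragments) with SCS. Among members not called, signs turned for H2AFZ (-0.31 by FPKM at the lowest) and H3F3B (0.72 by total fragments) without SCS, for H3F3A (0.32), H3F3B (0.50) and H1FX (0.44) by total fragments with SCS, and for 2 members with SCS against control in HT-29 and 6 in NCM460. Over all loci, FPKM, which has no counting interval, called 6425 loci in HT-29, 8430 in NCM460, and 9352 and 9177 between the lines (3839, 3690, 6144 and 6082 by TMM), and 1448 were called in NCM460 after the GC trend. With loci of more than 1 gene left out, the members' share of histone fragments was 36.8%, 58.1%, 28.9% and 37.0% in the 4 libraries, 57.6%, 63.4%, 31.3% and 45.3% within H2A, 58.1%, 82.9%, 43.6% and 58.8% within H3 and 32.7%, 69.7%, 49.3% and 54.9% within H1. Without the replication-dependent loci listed at 0 in both libraries of a line, an alternative chosen after seeing the data, it was 39.1% and 58.0% in HT-29, 67.7% and 86.4% within H3 and 48.3% and 76.5% within H1. Both alternatives kept the larger share with SCS in both lines, and neither corrects for GC content. The cause of these shifts was not tested.

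No paired analysis was possible because the groups share fewer than 2 replicate numbers, each having 1 library. A model with the line as a block and SCS as a term, which leaves 1 residual degree of freedom, was not fitted. Leaving out a library ends the comparisons that use it, and was not run for the others. Depth limits the smallest genes, H2AFJ with 3 and 8 fragments in NCM460 and H2AFY2 listed at 0 in HT-29, and counting intervals leave out the spread between cultures.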
